A study of Oryctolagus cuniculus with 34 samples.

Results

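FGF6 and IGF1, a pair of secreted muscle growth factors, were followed in RNA-seq libraries of rabbit supraspinatus, the rotator cuff muscle whose tendon was cut and later repaired. They are 2 of the 23669 genes in the count table and 2 of the 12937 with a level over 1 CPM (counts scaled to the size of the library) in at least 1 library, which were the genes tested. They are given by name, FGF6 as ENSOCUG00000001955 and IGF1 as ENSOCUG00000014689, and no threshold on their values was used, though earlier results of these data were known when they were chosen. FGF6 passed 1 CPM in 33 of 33 libraries and IGF1 in 29 of 33.

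The animals were female New Zealand White rabbits of about 6 months. The left supraspinatus tendon of each was detached (tenotomy), left for 8 weeks and then repaired by open surgery, and both shoulders were sampled 1, 2, 4 or 8 weeks after that repair. The repair groups hold the left muscles of 4, 5, 4 and 3 rabbits in order of time. The control groups hold the right muscles of 4, 5, 4 and 4 rabbits, which the methods call unoperated and the sample labels call a sham with a skin cut only. No repaired muscle was taken at the time of repair and no tenotomy without repair is among these libraries, so repair here always means 8 weeks of detachment plus the repair. Each library came from the most affected, posterior lateral region of 1 muscle, and in such bulk tissue fewer cells of a type and less RNA per cell cannot be told apart.

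Fibroblast growth factors bind tyrosine kinase receptors (FGFR) at the cell surface with the help of heparan sulphate chains, and signal through the Ras and MAP kinase relay, which feedback inhibitors of the Sprouty and DUSP families damp. FGF6 is made largely by skeletal muscle and its precursor cells and is known for a role in muscle regeneration. IGF1, made in liver under growth hormone and locally in muscle by several cell types, binds the receptor IGF1R, is held in tissue by IGF binding proteins, and acts through AKT and mTORC1 to raise protein synthesis and muscle mass.

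Totals of expected counts on genes ran from 13262913 to 28395188 in the libraries of 1 and 8 weeks and from 9220035 to 12332438 in those of 2 and 4 weeks, which also carry 2 different styles of sample title. Title series and time can therefore not be told apart across these pairs of weeks, and comparisons within a week are free of it. The study dropped the left library of 1 rabbit, and it was not used here either. This was the library of rabbit 3, 8 weeks after repair, which held 8756033 counts and correlated with the other repair libraries of its week at r = 0.709 across genes, against at least 0.968 for each of those. FGF6 stood at 0.451 CPM (2 counts) and IGF1 at 17.1 CPM (76 counts) in it. The summed CPM of 14 myofibre markers, checked for the labelled tissue, was 14046 to 108783 in the 33 libraries used, and none of the 14 was at 0 throughout a group.

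FGF6 was lower in the repaired than in the control shoulder at 1 and 2 weeks, and passed the test at both times. Its mean at 1 week was 4.66 ± 3.65 CPM (SD, n = 4) in repair and 16.2 ± 4.02 CPM (n = 4) in control. The fitted difference between groups was smaller at each later time. The differences between times did not pass a test, and the order of 2 and 4 weeks reversed in some other fits. At 8 weeks 1 rabbit had more FGF6 in the repaired shoulder. All levels are CPM normalised by the trimmed mean of M-values (TMM).

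At 1 week post-repair, control muscles of rabbits 5, 6, 7 and 8 held 19.5, 19.7, 11.6 and 14.2 CPM of FGF6. The repaired muscles of the same rabbits held 3.19, 1.89, 3.53 and 10.03 CPM. All 4 repair values lay under the lowest control value, a separation found in 13.3 percent of all tested genes in this direction, and rabbit 8 was the highest of the repair group. At 2 weeks, controls of rabbits 59, 60, 61, 62 and 64 held 21.8, 10.8, 18.3, 17.4 and 12.96 CPM. Their repaired muscles held 1.52, 3.64, 13.4, 14.9 and 4.22 CPM. Rabbits 61 and 62 kept repair values within the range of the controls, while rabbits 59, 60 and 64 lay far below it, so the groups overlapped. FGF6 was nevertheless lower on the repaired side in each of the 5 rabbits, as 13.4 percent of all genes were.

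The controls of rabbits 63, 66, 67 and 68 at 4 weeks held 13.2, 6.17, 16.5 and 6.47 CPM of FGF6. Repaired muscles held 5.88, 3.05, 2.84 and 2.84 CPM in the same order. The groups did not overlap, but by only a little, since the repair value of rabbit 63 came close to the control of rabbit 66 (3.93 percent of genes were separated this way). At 8 weeks, controls of rabbits 1, 2, 3 and 4 held 8.92, 16.1, 18.4 and 13.8 CPM, and the repaired muscles of rabbits 1, 2 and 4 held 15.2, 3.93 and 5.74 CPM. Rabbit 1 had the lowest control and the highest repair value of its week, and the groups overlapped.

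**Figure D1:**
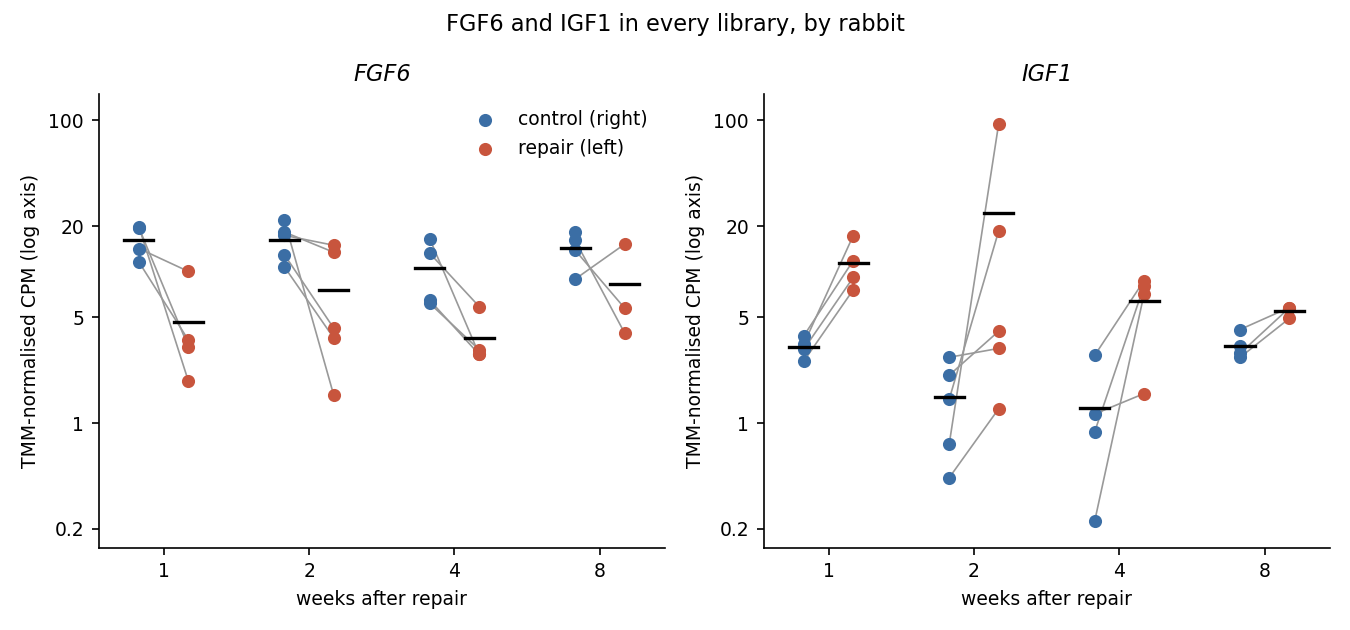
TMM-normalised CPM on a log axis of FGF6 (left) and IGF1 (right) in the 33 libraries by weeks after repair, control in blue and repair in red. Grey lines join the shoulders of a rabbit, black bars are group means, and the control of rabbit 3 at 8 weeks has no partner. FGF6 drops along most lines and IGF1 climbs along all of them, most steeply in rabbit 59 at 2 weeks, from 0.727 to 94.5 CPM.

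In the limma-voom fit, which compares groups and takes the shoulders as independent, FGF6 fell at 1 week with a log2FC of -2.07 (SE 0.48, 95% interval -3.05 to -1.10, adjusted p = 0.00768). Of all tested genes, 6.88 percent were called lower at that time, a gene being called at an adjusted p under 0.05. At 2 weeks FGF6 fell with a log2FC of -1.58 (SE 0.48, interval -2.55 to -0.60, adjusted p = 0.0292), where 7.92 percent of genes were called lower. With the rabbit as a block, which compares the shoulders within each animal, the value at 2 weeks was -1.26 and the adjusted p 0.0652, and no call was made. The call at 2 weeks was also lost without the repair library of rabbit 59 (log2FC -1.03, adjusted p = 0.164), and without the control library of rabbit 59, 61 or 62 (limma, adjusted p = 0.0564, 0.0554 and 0.0558). At 1 week the call held in all 8 fits with 1 library left out (adjusted p 0.00440 to 0.0346).

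FGF6 did not pass the test at the later times. Its log2FC was -1.50 at 4 weeks (SE 0.64, interval -2.82 to -0.18, adjusted p = 0.256), when 0.0464 percent of all genes were called lower. At 8 weeks it was -1.06 (SE 0.50, interval -2.10 to -0.03, adjusted p = 0.999), and limma called 0 percent of genes lower. In either direction, limma called 1 gene at 8 weeks (397 at an unadjusted p under 0.05), edgeR 1 and DESeq2 5. The mean of the 4 time points, with each weighted equally, was -1.55 (SE 0.27, adjusted p = 0.000136), and 17.7 percent of genes were called lower by that measure. The median log2FC of all genes, after TMM scaling, was at most 0.06 at any time.

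IGF1 was higher in the repaired shoulder of every rabbit at every time, with the 4 largest log2 ratios in rabbits of 2 and 4 weeks. Its mean at 2 weeks was 24.3 ± 39.9 CPM (n = 5) in repair and 1.48 ± 0.941 CPM (n = 5) in control, an average carried by 1 animal. It passed the test in the mean over the 4 times and, once rabbits entered as a fixed block, at 1 and 2 weeks. In the fit between groups, and in the fit that estimates a correlation between the shoulders instead of a block, it passed at no single week.

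At 1 week post-repair, IGF1 in the controls of rabbits 5, 6, 7 and 8 was 2.57, 3.77, 3.33 and 3.07 CPM. In the repaired muscles it was 7.59, 11.8, 17.3 and 9.16 CPM. The groups were far apart, with even the lowest repair value above the highest control, as in 16.1 percent of genes in this direction, and rabbit 7 stood highest. At 2 weeks, controls of rabbits 59, 60, 61, 62 and 64 held 0.727, 2.07, 2.72, 1.44 and 0.436 CPM. The repaired muscles of those rabbits held 94.5, 4.04, 3.11, 18.6 and 1.24 CPM. Rabbit 59 was by far the highest of all 33 libraries and rabbit 62 the next in its group, whereas rabbit 64 had a repaired value within the control range and rabbit 61 gained little. These controls rest on 4 to 28 counts, so their ratios carry counting error as well, and rabbit 59 went from 7 to 1489 counts.

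At 4 weeks, IGF1 in the controls of rabbits 63, 66, 67 and 68 was 0.874, 0.224, 2.79 and 1.15 CPM. Repaired muscles held 8.07, 7.12, 8.73 and 1.57 CPM. The repair values of rabbits 63, 66 and 67 lay above all controls and that of rabbit 68 did not, so the groups overlapped. The control of rabbit 66 is 2 counts, with an exact Poisson 95% interval of 0.0272 to 0.810 CPM that covers counting error only. At 8 weeks, controls of rabbits 1, 2, 3 and 4 held 2.71, 2.88, 3.25 and 4.15 CPM, against 4.92, 5.77 and 5.79 CPM in the repaired muscles of rabbits 1, 2 and 4. The difference was small but the groups did not overlap, as in 4.24 percent of genes, and the repair values varied little (SD 0.502, n = 3).

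The fitted log2FC of IGF1 at 1 week was 1.78 (SE 0.76, interval 0.23 to 3.33), and with limma the adjusted p of 0.103 was not past the threshold, where 6.81 percent of genes were called higher. With the rabbit as a block it was 1.87 and IGF1 was called (adjusted p = 0.0182), among 26.3 percent of all genes called in either direction by that fit, against 13.7 percent in the fit between groups. At 2 weeks the log2FC was 2.81 (SE 1.14, interval 0.47 to 5.15, adjusted p = 0.0823), with 7.95 percent of genes called higher. Within rabbits it was 3.71 and IGF1 was called (adjusted p = 0.00374), where the block called 31.6 percent of genes in place of 15.9 percent. With the estimated correlation between shoulders (0.174) in place of the block, IGF1 was not called at either time (log2FC 1.79 and 2.77, limma adjusted p = 0.0650 and 0.0591). Leaving out the repair library of rabbit 59 brought the value at 2 weeks down to 1.80 (limma, adjusted p = 0.171), and leaving out that of rabbit 64 brought it up to 3.45 with a call (adjusted p = 0.0216).

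At 4 weeks the log2FC of IGF1 was 2.49 (SE 1.44, interval -0.45 to 5.43, adjusted p = 0.391) and at 8 weeks 0.77 (SE 0.88, interval -1.04 to 2.57, adjusted p = 0.999), and neither fit called it. At these times 0.0773 and 0.00773 percent of genes were called higher. The SE of IGF1 exceeded that of FGF6 at every time. Averaged over the 4 times IGF1 rose by 1.96 (SE 0.54, interval 0.85 to 3.07, adjusted p = 0.00634), a fold of 3.90, and 22.4 percent of all genes were called higher by that measure. That call held in all 33 fits with 1 library left out (log2FC 1.71 to 2.12, limma adjusted p at most 0.0121).

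**Figure D2:**
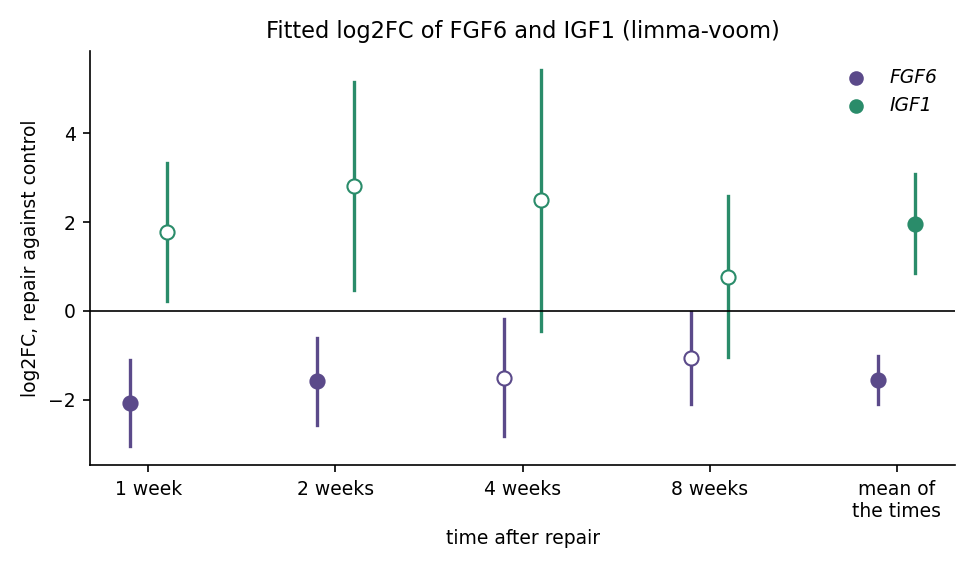
Fitted log2FC of repair against control (vertical axis) for FGF6 and IGF1 at each time and as the mean of the times, from limma-voom. Points are estimates, lines 95% intervals, and filled points have an adjusted p under 0.05: FGF6 at 1 week (-2.07) and 2 weeks (-1.58), and both genes in the mean (-1.55 and 1.96).

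Ordered by group mean, the 4 control groups of FGF6 lay above the 4 repair groups. The controls of 1 week (16.2 CPM), 2 weeks (16.2), 8 weeks (14.3) and 4 weeks (10.6) led, followed by repair at 8 weeks (8.28), 2 weeks (7.54), 1 week (4.66) and 4 weeks (3.65). Each neighbour in this order overlapped the next. IGF1 had the reverse arrangement, with repair at 2 weeks (24.3 CPM), 1 week (11.5), 4 weeks (6.37) and 8 weeks (5.49) above the controls of 8 weeks (3.25), 1 week (3.18), 2 weeks (1.48) and 4 weeks (1.26). The only neighbours whose values did not overlap were repair and control at 8 weeks.

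The controls themselves could differ between the title series. For FGF6, 1 and 8 week controls set against 2 and 4 week controls gave a log2FC of 0.25 (SE 0.32, adjusted p = 0.644). IGF1 had 1.53 (SE 0.94, interval -0.40 to 3.45, limma adjusted p = 0.294), and its highest control value of 2 and 4 weeks, 2.79 CPM, was above the lowest of 1 and 8 weeks, 2.57 CPM. Neither was called, in a contrast that called 15.5 percent of all genes.

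Taken within each animal, the 2 genes moved in opposite directions in 15 of 16 rabbits. Some of these directions lie within counting error. The exact Poisson 95% intervals of the shoulders overlapped for IGF1 in rabbits 4, 60, 61, 64 and 68, and for FGF6 in rabbits 61 and 62. FGF6 was lower on the repaired side in 15 of 16, as 5.27 percent of all genes were in at least that many, and IGF1 was higher in 16 of 16, as 2.49 percent were. Week by week, IGF1 was higher in each rabbit at all 4 times, as 27.6, 13.2, 14.2 and 15.8 percent of genes were. FGF6 was lower in each rabbit at 1, 2 and 4 weeks, as 23.8, 13.4 and 11.6 percent were. A shared direction within a single week was thus common among all genes, and over the 16 rabbits it was less so. The exception was rabbit 1 at 8 weeks, in which FGF6 was 1.70-fold and IGF1 1.81-fold of the control shoulder. The largest opposite pair was in rabbit 59, with FGF6 14.3-fold lower and IGF1 130-fold higher. Rabbit 66 had the next largest fold of IGF1 (31.7-fold, on a control of 2 counts) and rabbit 6 the next largest of FGF6 (10.4-fold lower).

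The difference of the 2 log2 ratios, IGF1 minus FGF6, measures how far the genes parted within each rabbit, and is above 0 also where both moved the same way and IGF1 further (log2 CPM with a prior count of 2, which shrinks ratios of low counts). It averaged 3.76 at 1 week (SD 1.22, n = 4) and 4.05 at 2 weeks (SD 3.79, n = 5). The later means were 3.78 for the rabbits of 4 weeks (SD 1.59, n = 4) and 1.58 for those of 8 weeks (SD 1.45, n = 3). The exact two-sided sign-flip permutation test gave 0.125, 0.0625, 0.125 and 0.25, each the smallest p that its number of rabbits allows, so no single week could pass. Over the 7 rabbits of 1 and 8 weeks the mean was 2.83 (exact permutation p = 0.0156, adjusted over 7 tests 0.0365), and over the 9 of 2 and 4 weeks it was 3.93 (exact permutation p = 0.00391, adjusted 0.0137). Over all 16 it was 3.45 (SD 2.40, range 0.07 to 10.51, exact permutation p = 3.05e-05, adjusted 0.000214). These last are also the smallest p possible, since the difference was above 0 in every rabbit. They test that IGF1 moved up relative to FGF6, not that the directions were opposite: rabbit 1, with both genes higher, had a difference of 0.07. The p-values do not measure how rare such a pair is among genes, since both genes were chosen with earlier results of these data known.

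**Figure D3:**
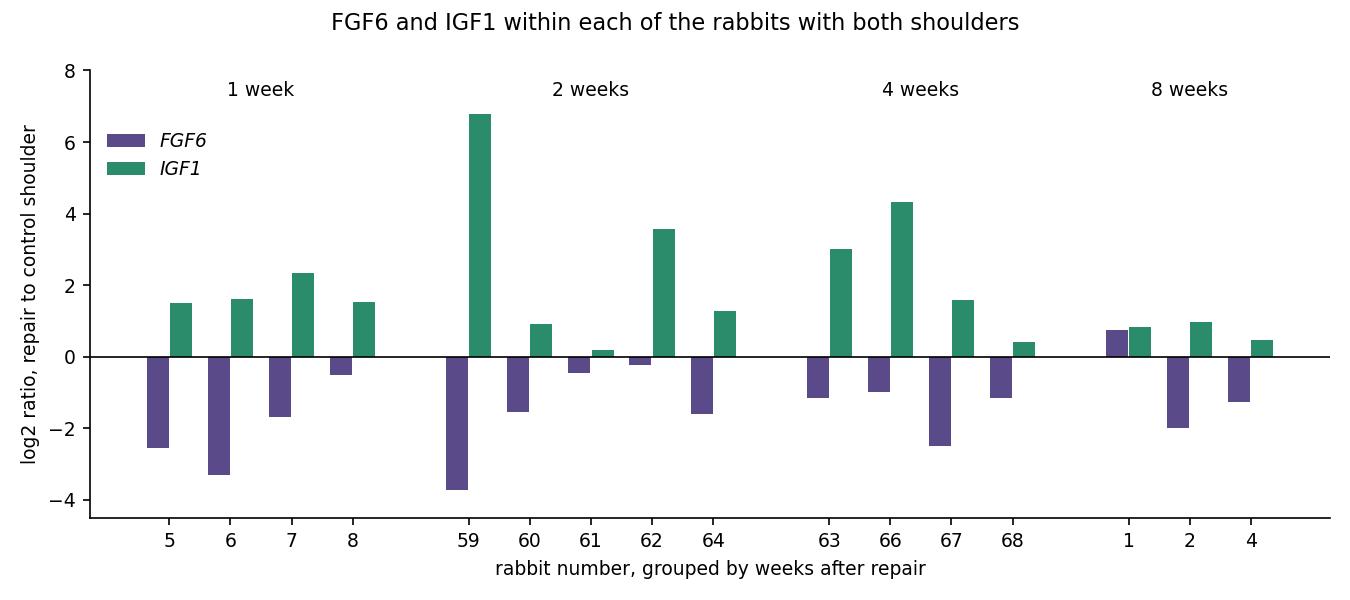
Log2 ratio of the repaired to the control shoulder (vertical axis) for FGF6 and IGF1 in each of the 16 rabbits with both libraries, grouped by weeks after repair. Bars of the 2 genes point apart in 15 rabbits, and rabbit 1 has both above 0 (0.76 and 0.83).

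The sizes of the 2 ratios were not detectably linked. Across the 16 rabbits, the log2 ratios of FGF6 and IGF1 had Pearson's r = -0.363 (permutation p = 0.167) and Spearman's rho = -0.259 (permutation p = 0.328). Within the series of 1 and 8 weeks r was -0.372 (exact permutation p = 0.413, n = 7) and within that of 2 and 4 weeks -0.492 (exact permutation p = 0.181, n = 9). Without rabbits 59 and 66, the farthest from the median of IGF1, r was -0.028. Rabbit 62 shows this separation of sizes, with IGF1 at 12.9-fold and FGF6 1.16-fold lower, and rabbit 67 the other side of it, with IGF1 at 3.12-fold and FGF6 5.80-fold lower.

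Differences between times were tested as differences of the repair effect. For FGF6, the effect at 1 week minus that at 8 weeks was -1.01 (SE 0.69, interval -2.43 to 0.41), at 2 minus 4 weeks -0.08 (SE 0.80), and at 1 minus 2 weeks -0.50 (SE 0.67). For IGF1 the same differences were 1.01 (SE 1.16, interval -1.37 to 3.39), 0.32 (SE 1.84) and -1.03 (SE 1.37). None was called by limma (adjusted p 0.827 to 1.00), and the intervals are wide enough to hold a several-fold difference in either direction for IGF1. The call of FGF6 at 1 and 2 weeks and not at 8 weeks is thus not shown to be a difference between those times.

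Of the other FGF ligands with a symbol, FGF9 and FGF16 were near the limit of detection. FGF9 averaged 0.653 CPM in repair and 0.403 CPM in control at 1 week, and FGF16 0.969 and 0.573 CPM, and neither was called at any time. Each of the 2 listed FGF receptors, FGFR4 and FGFR1, was called at 1 time. Only genes whose symbol was read here could be listed, 3310 of the 12937 tested, so other FGF and IGF genes are not covered. FGFR4, the receptor of differentiating muscle cells, rose at 1 week from 4.35 ± 1.17 to 13.8 ± 11.7 CPM (log2FC 1.39, limma adjusted p = 0.0338), and had a log2FC of -0.10 at 2 weeks. FGFR1, common in connective tissue and muscle precursor cells, rose at 2 weeks from 18.1 ± 3.81 to 62.5 ± 57.4 CPM (1.35, adjusted p = 0.0241). Without the repair library of rabbit 59, FGFR1 at 2 weeks had a log2FC of 0.92 (limma adjusted p = 0.0911) and was not called.

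Cell surface and matrix co-factors carry the heparan sulphate that FGF binding needs, or trim it. The glypican GPC3 rose at 1 week (log2FC 3.16, limma adjusted p = 0.0276), from 0.169 to 2.19 CPM. The syndecan SDC2 rose at 2 weeks (1.11, adjusted p = 0.0143). SULF1 and SULF2, which remove sulphate groups from these chains, had log2FC of 1.02 and 1.93 at 1 week and 1.56 and 2.15 at 2 weeks. In the fit between groups they were called in the mean over the times (adjusted p = 0.0169 and 0.00332) and at no single week. FLRT3, a membrane partner of FGF receptors, had 1.75 and 2.09 and was likewise called in that mean (adjusted p = 0.00238). With the rabbit as a block all 3 were called at both weeks (adjusted p 0.00336 to 0.0366).

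In the relay behind the receptors, GAB1, a docking protein of receptor kinases, rose at 1 week (log2FC 0.62, limma adjusted p = 0.0300) and 2 weeks (1.27, adjusted p = 0.00222), and the second call held without rabbit 59 (1.26, adjusted p = 0.00440). RASA2, a Ras GTPase-activating protein, rose at both times (0.89 and 1.04, adjusted p = 0.0323 and 0.0254). MAP2K1, the kinase MEK1, fell at 2 weeks (-0.50, adjusted p = 0.0316). The transcripts often read as targets of the pathway were not called at any time between groups. The feedback inhibitors SPRY2 and SPRY4 had log2FC of -0.18 and -0.34 at 1 week and -0.06 and 0.80 at 2 weeks. The phosphatases DUSP4 and DUSP6 had -0.62 and -0.28 at 1 week and -0.51 and 0.20 at 2 weeks. The transcription factor ETV1 had 0.87 and 0.97, and was called with the rabbit as a block (0.94 and 1.08, adjusted p = 0.0224 and 0.0248).

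Of 24 FGF genes other than FGF6, 4 rose and 0 fell at 1 week and 4 rose and 1 fell at 2 weeks, where 13.7 and 15.9 percent of all genes were called. The medians were 0.48 and 0.74, beside 0.05 and 0.06 over all genes. None was called at 4 or 8 weeks by limma between groups (5 and 1 at an unadjusted p under 0.05) or with the block (8 and 2), where the fit between groups called 0.124 and 0.00773 percent of all genes and the block 2.81 and 0.00773 percent. At an unadjusted p under 0.05, the counts among all 12937 genes were 2058 and 397 between groups and 2850 and 601 with the block. With the rabbit as a block 10 of 24 were called at 1 week and 13 of 24 at 2 weeks, where that fit called 26.3 and 31.6 percent of all genes, while without the repair library of rabbit 59 the count at 2 weeks was 2, SDC2 and GAB1, where 2.62 percent of all genes were called.

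On the IGF side, neither listed receptor was called between groups. IGF1R held 7.73 ± 2.13 CPM in repair and 9.03 ± 1.31 CPM in control at 1 week (log2FC -0.25), and 7.97 ± 5.10 and 4.55 ± 1.19 CPM at 2 weeks (0.70, limma adjusted p = 0.100). GHR, the growth hormone receptor that drives IGF1 synthesis, held 275 ± 60.4 CPM in repair and 500 ± 58.3 CPM in control at 1 week (log2FC -0.88, adjusted p = 0.0521). Within rabbits GHR was called lower at 1 week (-0.88, adjusted p = 0.0106) and 2 weeks (-0.63, adjusted p = 0.0178), and IGF1R was called higher at 2 weeks (0.78, adjusted p = 0.0393). GHR was also called lower in the mean over the 4 times (-0.45, adjusted p = 0.0192), on the opposite side from IGF1.

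IGFBP4, which binds IGF1 and withholds it from the receptor, rose at 1 week from 14.2 ± 1.3 to 83.9 ± 23.4 CPM (log2FC 2.51, limma adjusted p = 0.0218) and at 2 weeks from 9.59 ± 1.79 to 211 ± 314 CPM (3.14, adjusted p = 0.00952). It was called without rabbit 59 too (2.40, adjusted p = 0.0259). PAPPA, the protease that cuts IGFBP4, had log2FC of 0.74 and 0.69 and was not called. IGFBP6, which prefers IGF2, had 1.27 and 1.31 and was called in the mean over the times (1.05, adjusted p = 0.00560).

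In the relay behind the receptor, the phosphatase PHLPP1, which acts on AKT, fell at 1 week (log2FC -0.36, limma adjusted p = 0.0268). GRB14, an inhibitor of insulin receptor signalling, and INPPL1, a lipid phosphatase of the same relay, fell at 2 weeks (-0.84 and -0.56, adjusted p = 0.0387 and 0.00553). Downstream, the mTORC1 anchors LAMTOR1 and LAMTOR3 fell at 2 weeks (-0.43 and -0.33), the translation inhibitor EIF4EBP2 at 1 week (-0.50, adjusted p = 0.0137), and the initiation factor EIF4G1 at both (-0.45 and -0.42, adjusted p = 0.0423 and 0.0249). Members that promote and members that restrain signalling are both among those that fell. The row of RPS6 averaged 25.6 ± 24.3 CPM in repair and 0.951 ± 2.10 CPM in control at 2 weeks. With an SE of 5.38 its log2FC is uncertain, and the cause of this spread was not tested.

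Of 22 IGF and mTORC1 genes other than IGF1, 2 rose and 3 fell at 1 week and 2 rose and 5 fell at 2 weeks, where 13.7 and 15.9 percent of all genes were called. Their medians were -0.27 and -0.11. At 4 and 8 weeks limma called 0 in either fit (3 and 1 at an unadjusted p under 0.05 in both). Among all 12937 genes the unadjusted counts were 2058 and 397 between groups and 2850 and 601 with the block. With the rabbit as a block 6 were called at 1 week and 11, RPS6 included, at 2 weeks, where 26.3 and 31.6 percent of all genes were called, so the count at 1 week is near the background. Without the repair library of rabbit 59, 4 were called at 2 weeks, IGFBP4, INPPL1 and LAMTOR1 among them, where 2.62 percent of all genes were called.

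**Figure D4:**
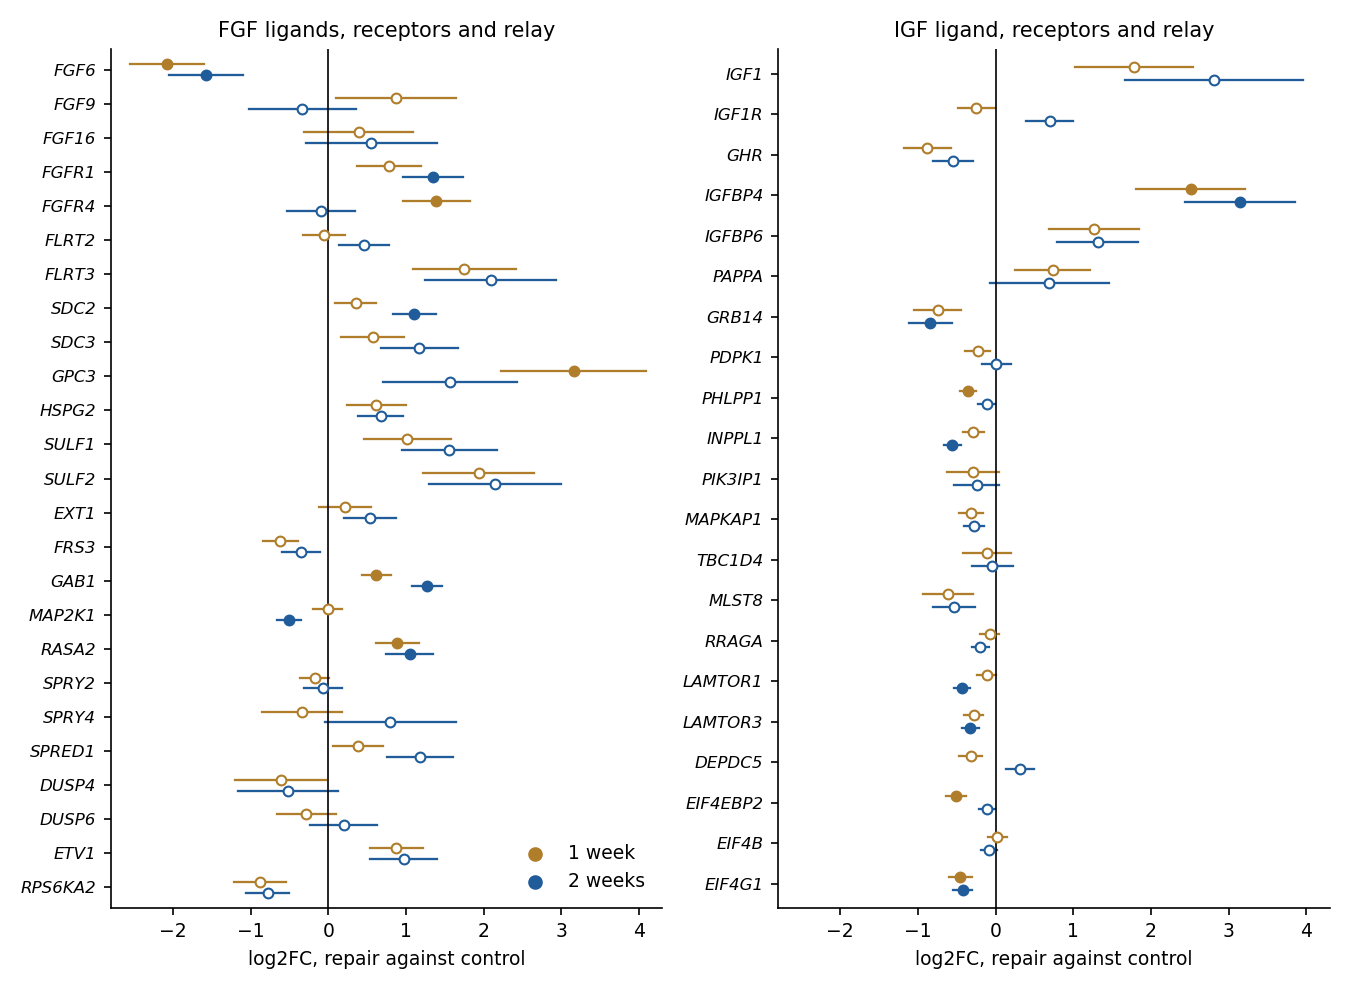
Log2FC of repair against control (horizontal axis) at 1 week and 2 weeks for genes of the FGF side (left) and of the IGF and mTORC1 side (right, without RPS6 and 1 gene not reported here). Points are limma-voom estimates, lines 1 SE to either side, and filled points have an adjusted p under 0.05. FGF6 is the only filled point left of -1, while GPC3 at 1 week (3.16) and IGFBP4 at 2 weeks (3.14) lie farthest right. IGF1 is unfilled at 1.78 and 2.81.

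Among 18 other genes of muscle growth and differentiation, 0 rose and 3 fell at 1 week, and 3 rose and 1 fell at 2 weeks, where 13.7 and 15.9 percent of all genes were called, so the count at 1 week is near the background. VEGFA, the vascular growth factor, fell at both (log2FC -1.40 and -0.69, limma adjusted p = 0.00326 and 0.0465). The serum response factor SRF fell at 1 week (-0.49, adjusted p = 0.0463). CDON, a co-receptor of myogenic cell contact, the secreted FSTL1 and the activin receptor ACVR2A rose at 2 weeks (1.56, 1.64 and 0.71, adjusted p = 0.0269, 0.0458 and 0.0269). HGF, which activates satellite cells, had log2FC of 1.91 and 2.56 (adjusted p = 0.102 and 0.0541) and was called in the mean over the times (1.5, adjusted p = 0.0180). The myogenic factor MYF6 had 0.40 and -0.43 and was not called. At 2 weeks limma called 0 of the 18 without the repair library of rabbit 59 (8 at an unadjusted p under 0.05). In that fit 2.62 percent of all genes were called, and 2800 of 12514 had an unadjusted p under 0.05. With the rabbit as a block 7 were called at 1 week and 9 at 2 weeks, where 26.3 and 31.6 percent of all genes were called, HGF at both (adjusted p = 0.0352 and 0.0128).

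TIGAR, a metabolic phosphatase, and CCND2, a G1 cyclin, neighbour FGF6 in the RefSeq annotation of assembly mOryCun1.1, another build than that of the counts. TIGAR fell at 1 and 2 weeks (log2FC -0.97 and -1.35, limma adjusted p = 0.0473 and 0.0155), and also at 2 weeks without rabbit 59 (-1.37, adjusted p = 0.0465). CCND2 rose at 2 weeks (1.76, adjusted p = 0.0447), with 1.09 (adjusted p = 0.126) and no call without rabbit 59. The 2 neighbours thus moved to opposite sides.

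Sums of markers of other cell types were also compared between the shoulders. In the fit between groups, 1 of 9 macrophage markers was called higher at 1 week and 0 at 2 weeks. The counts at the same times were 1 and 4 of 9 fibroblast markers and 3 and 1 of 3 adipocyte markers. Of 5 mural and 7 endothelial markers they were 1 and 1, and 0 and 2. No marker of these lists was called at 4 or 8 weeks, or called lower. Of all genes, 6.81, 7.95, 0.0773 and 0.00773 percent were called higher at 1, 2, 4 and 8 weeks. The summed CPM of 9 macrophage markers at 1 week was 51.7 to 148 in repair and 24.0 to 46.2 in control. At 2 weeks it was 11.2 to 558 against 11.99 to 19.8, at 4 weeks 5.70 to 63.9 against 8.41 to 25.1, and at 8 weeks 45.3 to 104.5 against 32.6 to 71.6. These sums were higher on the repaired side in 13 of 16 rabbits, and none of the 9 markers was at 0 throughout a group. The highest sum of all was in the repaired muscle of rabbit 59, where IGF1 was also highest.

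The 9 fibroblast markers summed to 4909 to 18341 CPM in repair and 1305 to 1705 CPM in control at 1 week, and were higher in 14 of 16 rabbits. At 2 weeks they summed to 601 to 57050 against 714 to 1202, at 4 weeks to 801 to 5157 against 555 to 1150, and at 8 weeks to 2601 to 4525 against 1569 to 3373. The 3 adipocyte markers were higher in 16 of 16 rabbits, with 299 to 939 CPM in repair and 128 to 218 CPM in control at 1 week, 124 to 712 against 87.8 to 123 at 2 weeks, 308 to 594 against 75.1 to 177 at 4 weeks and 260 to 392 against 135 to 261 at 8 weeks. None of these was at 0 throughout a group. Mural and endothelial markers were higher in 13 and 10 of 16 rabbits, with median log2 ratios of 0.41 and 0.23, and their relation with IGF1 was not computed.

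Across the 16 rabbits, those with the larger log2 ratio of these sums had the larger log2 ratio of IGF1. For macrophage markers, the log2 ratios had r = 0.890 (permutation p = 4e-05) and rho = 0.838 across 16 rabbits. Within the series of 1 and 8 weeks r was 0.790 (exact permutation p = 0.0353, n = 7). By rank order the relation did not pass there (rho, exact permutation p = 0.267). Within the series of 2 and 4 weeks r was 0.901 (exact permutation p = 0.00133, n = 9). Without rabbits 59 and 62 r was 0.735 (permutation p = 0.00289). For fibroblast markers r was 0.852 and rho 0.803, within series 0.923 and 0.893, and 0.686 without rabbits 59 and 62. For adipocyte markers r was 0.696 and rho 0.741, with 0.550 within 1 and 8 weeks (exact permutation p = 0.197, n = 7) and 0.737 within 2 and 4 weeks, and 0.606 without rabbits 62 and 66. Adjusted over the 5 relations computed, the permutation p of r was 0.000175, 0.000175 and 0.00147 and that of rho 0.000550, 0.000625 and 0.00208 for the 3 lists. The part of these cells in the level of IGF1 was not tested.

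In 3 rabbits the macrophage sum was lower on the repaired side and the IGF1 value was not. In rabbits 61, 64 and 68 the macrophage sum had log2 ratios of -0.45, -0.09 and -1.11, and IGF1 had 0.19, 1.27 and 0.41. These IGF1 ratios rest on 28, 4 and 11 counts in control and 32, 15 and 16 in repair, and the Poisson 95% intervals of the shoulders overlap in each of the 3. Rabbits 61 and 68 had the smallest IGF1 ratios of the 16.

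**Figure D5:**
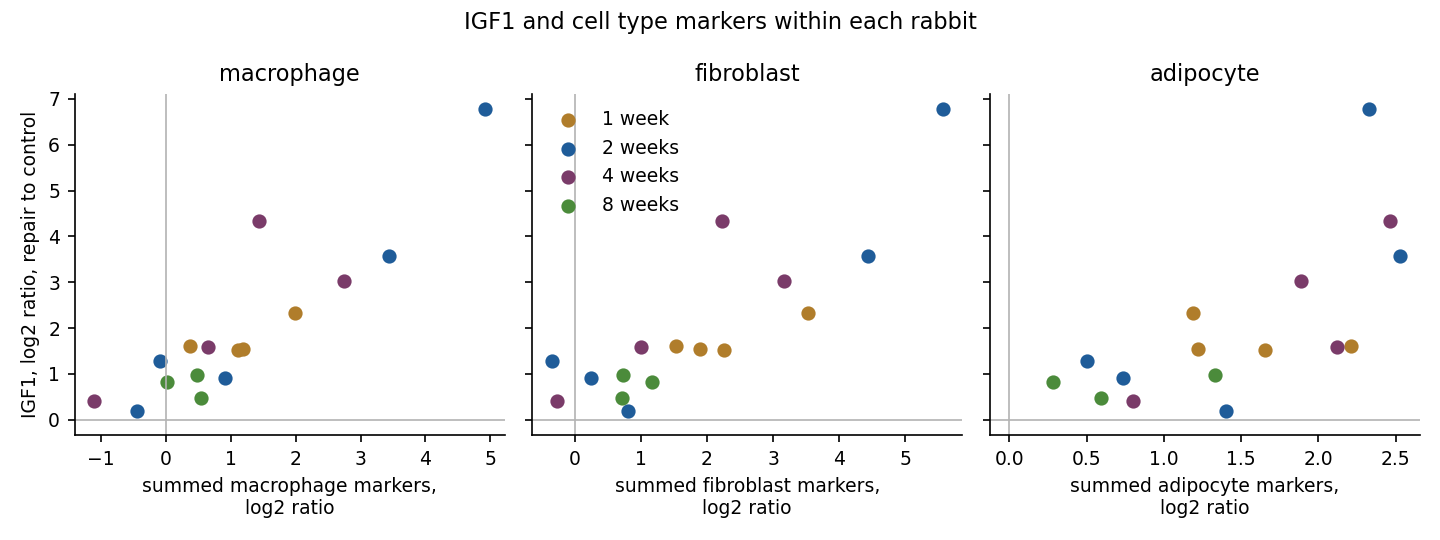
Log2 ratio of IGF1 between repaired and control shoulder (vertical axis) against that of summed macrophage, fibroblast and adipocyte markers (horizontal axes, which differ in range), with 1 point for each of 16 rabbits coloured by weeks after repair. The points climb from lower left to upper right in each panel (r = 0.890, 0.852 and 0.696), with rabbit 59 of 2 weeks at the top.

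For FGF6 the matching list is that of 14 myofibre markers. Their sum was lower on the repaired side in 13 of 16 rabbits, with a median log2 ratio of -0.24. Single markers went both ways. In the fit between groups 1 was called higher and 2 lower at 1 week (log2FC -1.67 to 2.97), and 0 and 3 at 2 weeks. At 4 and 8 weeks 0 were called. Of all genes, 6.81 and 6.88 percent were called higher and lower at 1 week, and 7.95 and 7.92 percent at 2 weeks. The 14 markers summed to 14046 to 64744 CPM in repair and 61176 to 77193 CPM in control at 1 week. At 2 weeks they summed to 15333 to 68715 against 34490 to 74847. The sums were 37650 to 65778 against 48231 to 108783 at 4 weeks, and 39678 to 69859 against 53354 to 69832 at 8 weeks. The log2 ratio of FGF6 averaged -1.49 (SD 1.15) over the same rabbits. In rabbits 60 and 68, where the myofibre sum was higher on the repaired side (0.42 and 0.45), FGF6 was lower (-1.53 and -1.15), and in rabbit 1 both were higher (0.39 and 0.76). Across the 16 rabbits r was 0.449 (permutation p = 0.0813, adjusted 0.102) and rho 0.344 (permutation p = 0.191), with r = 0.732 within 1 and 8 weeks (exact permutation p = 0.0677, n = 7), 0.143 within 2 and 4 weeks and 0.383 without rabbits 6 and 66. The part of myofibre RNA in the level of FGF6 was not tested beyond these values.

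The genes whose log2 ratios ran most like those of FGF6, of 2774 with a symbol and an average log2 CPM of at least 1, were SYNPO (r = 0.776), COX10 (0.773), DAG1 (0.772), TMA16 (0.764) and INPP1 (0.760) over 16 rabbits. SYNPO is an actin-associated protein, COX10 an assembly factor of cytochrome c oxidase, and DAG1 is dystroglycan of the muscle membrane. Most opposed were VAC14 (-0.792), QTRT2 (-0.782), ANKRA2 (-0.764), POLD3 (-0.761) and ZFYVE27 (-0.743). Without rabbit 59 the values of the first 5 were 0.674 to 0.734.

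IGF1 had closer companions. The highest were CSF1R (r = 0.943), the macrophage growth factor receptor and one of the 9 macrophage markers above, then IQGAP2 (0.930), ASAP3 (0.929), ADGRD1 (0.929) and ELF4 (0.927). Most opposed were PPID (-0.935), DDO (-0.892), HDGF (-0.889), ABCF1 (-0.886) and RSL24D1 (-0.878). Leaving out rabbit 59, the 5 highest had 0.832 to 0.891. All of these are descriptions over ratios from shared libraries, in which rabbits 59 and 62 lie far from the rest.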

How the data were processed

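RNA was measured by sequencing in 34 supraspinatus libraries of 17 rabbits, 33 of them used. STAR alignment to OryCun2.0 and RSEM quantification on Ensembl genes were done by the authors. The deposited values are expected counts per gene, not scaled. A TruSeq Stranded mRNA kit was used. Symbols are those read from 2 of the study's tables, which agreed for 347 of 347 genes named in both. The symbols read covered 3310 of the 12937 genes tested. The study states that it mapped most of its genes to human ones, so this is not the number that it names.

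Genes with CPM over 1 in at least 1 library were kept. After TMM scaling in edgeR 4.0.16, limma-voom (limma 3.58.1 under R 4.3.3) was fitted to 8 groups of treatment and week, following the study's methods. p-values are moderated, with Benjamini-Hochberg adjustment over all 12937 genes in each contrast. The fit was tested on simulated data with 200 changed genes. The simulated counts were independent draws without rabbit pairs, a difference between title series or an outlying animal, so they do not test such effects. Counts were rounded for edgeR quasi-likelihood and DESeq2 1.42.0. The replicate number is the rabbit, so it pairs the shoulders of 1 animal: residuals of the shoulders correlated at 0.0252 or more (median 0.257), and 15 of 16 repair libraries were closest to the control of the same animal. Fits with the rabbit as a fixed block or as a correlation (duplicateCorrelation, 0.174) were run beside the main one, as were median-ratio size factors, all 34 libraries, filterByExpr, no filter, CPM over 1 in at least 5 libraries, sample quality weights, a week's libraries alone, and 1 library left out in turn. Counts of list genes with the block and without rabbit 59 were added after values were seen.

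Log2 ratios within rabbits used a prior count of 2. Sign-flip tests were exact, and permutation tests of correlations used 100000 resamples, or all orders within a title series (Python 3.11.15, NumPy 2.4.6, SciPy 1.17.1; figures with matplotlib 3.10.9). Rabbits are the replicates. FGF6, IGF1, the gene and marker lists and the tests were chosen with earlier results of these data known. Named beside the members were all listed FGF and IGF ligands and receptors, list genes called at any week, the 5 genes most and least like each member, and the neighbours of FGF6. List genes that were not called are given where they show the rest of a list. No set test was run. The lists count 2 genes whose values are not reported here. The authors' own tables of DE genes hold their fold changes and p-values, which were not used. No pair of libraries was identical (highest r 0.987).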

Additional observations from a re-analysis of the deposited data

Results flagged for a closer look

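In 4 of 20 groups of 4 or 5 values, 1 animal lay so far from the others of its group that the gap passed Dixon's 95% limit, a limit that chance passes in about 1 of 20 groups. FGF6 in repaired muscle at 4 weeks was highest in rabbit 63, at 5.88 CPM against 2.84 to 3.05 CPM in the other 3. IGF1 in repaired muscle at 2 weeks was highest in rabbit 59, at 94.5 CPM against 18.6 CPM in the next. The log2 ratio of FGF6 between the shoulders at 4 weeks was lowest in rabbit 67, at -2.48 against -1.15 or above in the rest. The log2 ratio of IGF1 at 1 week was highest in rabbit 7, at 2.33 against 1.62 in the next. In rabbit 59 the summed macrophage and fibroblast markers were also the highest of their group (558 and 57050 CPM), and their part in its IGF1 was not tested.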

How the results depend on the processing

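The direction of both genes held at every week and in the mean over the times under all alternatives and with any library left out. The call of FGF6 at 1 week held under all of them too. Other calls at single weeks did not, and the cause was not tested. FGF6 at 2 weeks lost its call with all 34 libraries (log2FC -1.57), edgeR (-1.11), DESeq2 (-1.12), the rabbit as a fixed replicate block (-1.26), quality weights (-0.94) and the week alone (-1.57), and ran from -2.02 to -1.03 with 1 library left out. IGF1 gained a call at 1 week with the block (1.87), quality weights (1.74) and the week alone (1.77), at 2 weeks with edgeR (4.03), DESeq2 (4.05) and the block (3.71), and at 4 weeks with quality weights (2.65), and ran from 1.80 to 3.45 at 2 weeks with 1 library left out. A fit with an estimated correlation between paired shoulders made the same calls of both genes as the fit between groups, and so lacks the 3 changes that the fixed block made at 1 and 2 weeks. IGF1 in controls of 1 and 8 against 2 and 4 weeks was called with quality weights (1.39).

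Differences between times, never called, changed sign: FGF6 at 2 against 4 weeks with edgeR (0.44), DESeq2 (0.43), the block (0.30) and quality weights (0.63), and IGF1 with quality weights at 2 against 4 weeks (-1.17) and 1 against 2 weeks (0.26). With 1 library left out the effects at 2 against 4 weeks ran from -0.52 to 0.47 for FGF6 and from -0.69 to 0.96 for IGF1. The relation of IGF1 with adipocyte markers missed the threshold within 1 and 8 weeks (r = 0.550). By rho, the relations with macrophage and with adipocyte markers both missed it there (exact permutation p = 0.267 for each).

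Over all genes, 1771, 2053, 16 and 1 were called at 1, 2, 4 and 8 weeks. With other settings these counts ran from 294 to 4179, 5 to 4088, 0 to 1032 and 0 to 84, the block giving 3406, 4088, 364 and 1, edgeR 1568, 3716, 326 and 1, and DESeq2 2238, 4033, 675 and 5. With 1 library left out they ran from 593 to 1763, 328 to 3456, 2 to 281 and 0 to 4. Low counts limit IGF1 in the controls of 2 and 4 weeks (2 to 28), and 3 to 5 rabbits a week limit every single-week test.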
